A study of Rattus norvegicus with 4 samples.

Results

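Lysosomal enzymes and membrane proteins were followed as a list of 36 genes, taken from the deposited count table by gene symbol. The list holds 8 proteases, 8 lipid hydrolases and their activators, 6 glycosaminoglycan hydrolases, 4 hydrolases of other glycans, 2 cholesterol export proteins, 7 membrane proteins and progranulin. Of these, 35 were matched by symbol, and all 35 passed the low-count filter, out of 21648 gene identifiers and 12162 genes tested. Ctsc, with 1 and 2 counts in the topotecan libraries, and Sgsh, with 8 and 7, passed on their DMSO counts alone. For these genes the filter itself favoured a fall, and both are among those called lower by 2-fold or more below. Manba, the lysosomal beta-mannosidase, was not analysed here. The samples were cortical neurons from day 18 rat embryos, obtained from a commercial supplier and moved from plating medium to a supplemented neuronal medium after 24 hours. One group received the solvent DMSO and the other received topotecan, an inhibitor of topoisomerase I that the submitters used to lower the expression of long genes. There were 2 libraries per group. The labels name no strain, dose or exposure time. Whether the duplicates were separate cultures is not stated, so the p-values reflect only how far these libraries vary, and that variation may be technical.

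The lysosome is the acidic compartment in which cells break down proteins, lipids, glycans and worn organelles. Its hydrolases are soluble enzymes, most of them brought there by mannose 6-phosphate receptors, while a coat of heavily glycosylated membrane proteins, ion channels and transporters forms its boundary and exports the products. Many of these genes are activated by the transcription factor TFEB and its relatives, which bind an E-box called the CLEAR element. Loss of single lysosomal enzymes causes storage diseases, many of which damage neurons, and glia and neurons both rely on lysosomes.

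The libraries held between 22957786 and 31181382 counts. They also held RNA of cell types other than the one on the label. Each of 10 astrocyte markers was lower in topotecan (median log2 fold change -5.54), and so was each of 10 markers of the oligodendrocyte lineage (median -5.50). Their summed levels went from 5580 and 5695 CPM (counts scaled to 1e+06 per library) in the DMSO libraries to 537 and 579 CPM in topotecan for astrocytes, and from 4008 and 4308 to 136 and 123 CPM for the oligodendrocyte lineage. Of 14 neuron markers 7 rose (50%) and 3 fell (21.4%), with log2 fold changes from -1.53 to 1.23. Among all genes tested 16.2% were higher and 23.5% lower. The summed level of the neuron markers was 23410 and 21630 CPM in DMSO and 25500 and 26630 CPM in topotecan. The 10 microglia markers had at most 13 counts in any library, with Aif1, Cx3cr1, Tmem119, C1qa, C1qb and C1qc at 0 in all 4. Microglia markers summed to between 0.261 and 0.814 CPM per library. Of 6 radial glia markers tested 5 were lower (median log2 fold change -4.36). Radial glia markers summed to 359 and 339 CPM in DMSO and to 12.1 and 11.6 CPM in topotecan. Of 3 fibroblast and mural cell markers tested 2 were lower and 1 higher. The part that these shifts in cell markers play in the values below was not tested, and in bulk RNA fewer cells of a type and less RNA per cell cannot be told apart.

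More than any other outcome, lysosomal genes fell in topotecan, and none was called higher. Of the 35 genes 20 were lower (57.1%), against 23.5% of all genes tested, and 0 were higher, against 16.2% of all genes tested (edgeR, with p adjusted over all genes tested and called under 0.05). Among those called, the fitted log2 fold change ran from -7.12 for Ctsc and -7.07 for Ctsh, the genes of cathepsins C and H, to -0.24 for Hexa, whose enzyme acts on the ganglioside GM2. A fall of 2-fold or more was called for 9 genes of the 35, while 13.1% of all genes tested fell that far and 1.27% rose that far. The median log2 fold change of the list was -0.25, against -0.0096 for all genes tested. At an unadjusted p under 0.05, 21 members were lower, against 26.8% of all genes tested, and 1 was higher, against 20.9%, and both DESeq2 and limma-voom called 0 higher.

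The libraries themselves were compared next. In 26 of the 35 genes both topotecan libraries lay below both DMSO libraries, in 3 they lay above, and in 6 the groups overlapped. Over all genes tested the corresponding shares were 36.9% below and 33.7% above. The summed level of the 35 genes was 7522 and 7796 CPM in DMSO and 5935 and 6388 CPM in topotecan, 1.24-fold lower. Scaled to neuron markers, 26 members were lower, against 33.4% of all genes tested under that scaling, and 0 were higher, against 4.73%. Fewer members were called lower without topotecan replicate 1, when Ctsa, Ctsd, Hexa, Lipa, Neu1, Psap and Sgsh lost their calls. Fewer were also called without topotecan replicate 2, and in both settings fewer of all genes tested were called lower. The members' median was then -0.22 and -0.35, against -0.022 and -0.014 for all genes. With DESeq2 16 members were lower, and 2381 of the 12162 genes tested, against 2854 in the main fit. No set test was made on the list, so its counts and median stand only beside those of all genes.

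**Figure D1:**
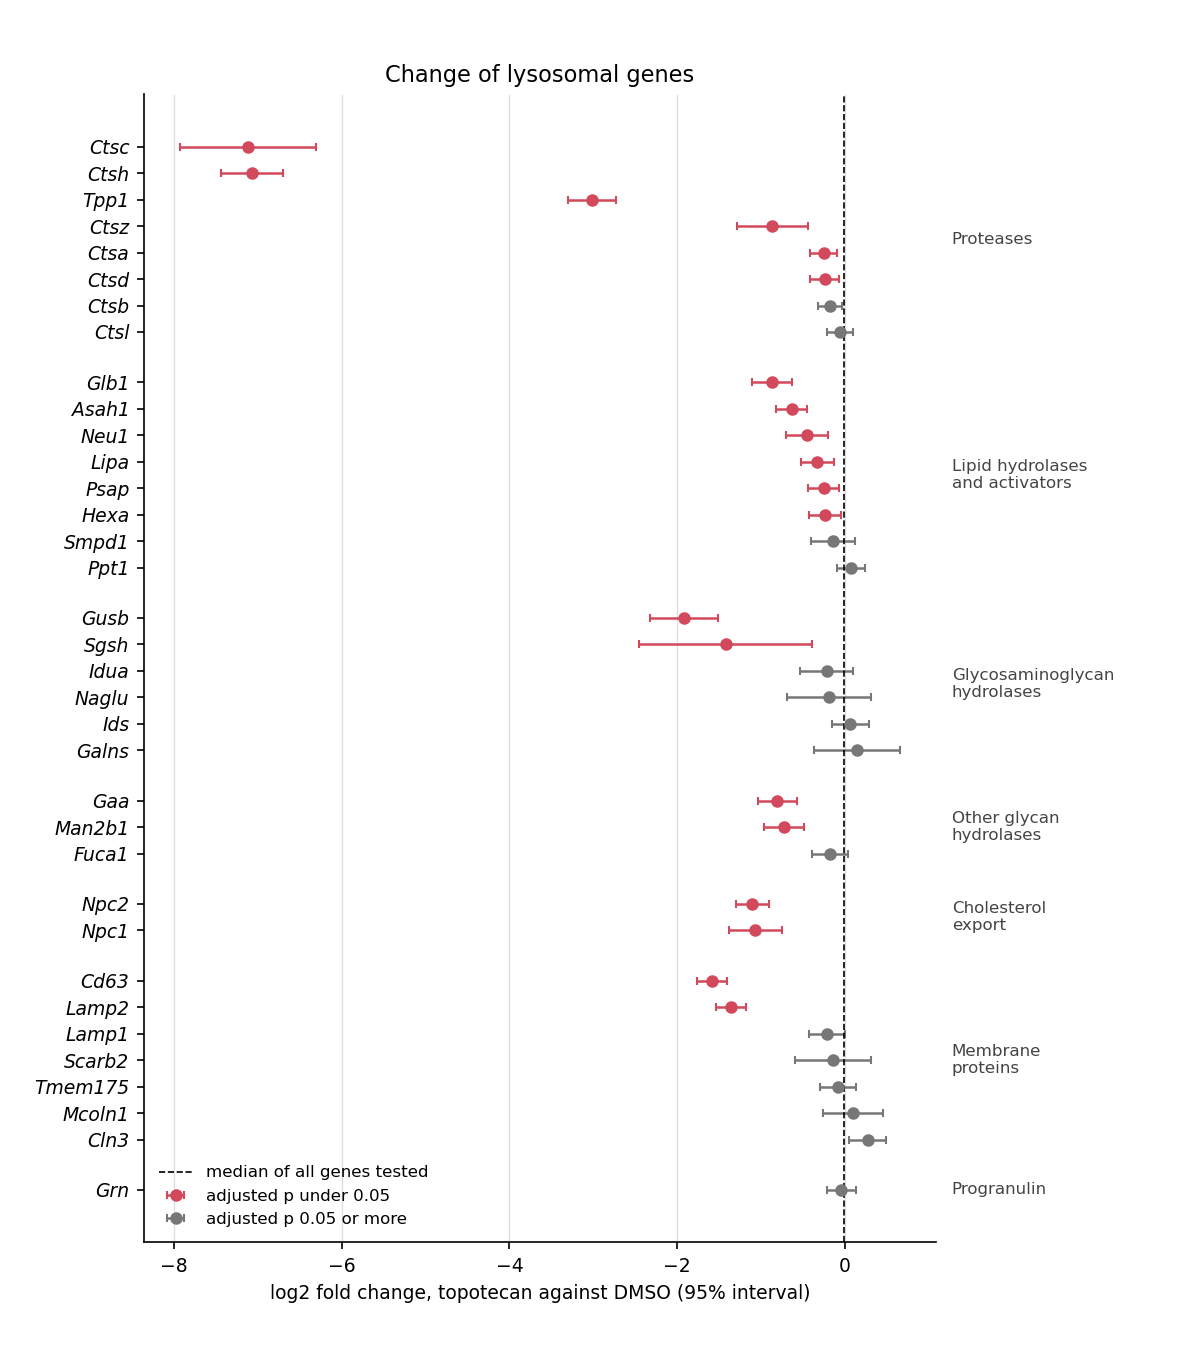
Log2 fold change of each of the 35 lysosomal genes in topotecan against DMSO, grouped by role, with its 95% interval from the edgeR fit. Ctsc and Ctsh sit near -7 and Tpp1 near -3, while 15 genes (grey) did not pass an adjusted p of 0.05; the dashed line is the median of all genes tested.

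The proteases held both the deepest falls of the list and some of the smallest changes. Of 8 genes 6 fell (75%, against 23.5% of all genes tested), with log2 fold changes from -7.12 to -0.24, and 2 were not called. Ctsh (ENSRNOG00000014064) encodes cathepsin H, a cysteine protease that trims the amino ends of peptides. It stood at 78.8 and 76.8 CPM in DMSO replicates 1 and 2 and at 0.489 and 0.674 CPM in topotecan replicates 1 and 2. The topotecan libraries were far below both DMSO libraries, and the log2 fold change was -7.07 (SE 0.17, edgeR adjusted p = 1.0e-12). In counts, 3966 summed over DMSO faced 32 in topotecan, a ratio of 136 with an exact 95% interval from 96.1 to 199 that covers counting error only.

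Ctsc (ENSRNOG00000016496), the gene of cathepsin C, which activates serine proteases of immune granules by removing dipeptides, was at 7.76 and 8.48 CPM in DMSO. In topotecan 1 count was left in replicate 1 and 2 counts in replicate 2, or 0.0326 and 0.0793 CPM. Between 412 counts over DMSO and 3 over topotecan the ratio was 151, with a counting interval from 51.2 to 734, and the log2 fold change was -7.12 (SE 0.38, edgeR adjusted p = 3.0e-09). The fitted changes of Ctsc and Ctsh do not differ beyond their intervals. Only 124 of the 12162 genes tested had a lower fitted change than Ctsc. Beside these values stand the medians of the astrocyte and oligodendrocyte lineage markers, -5.54 and -5.50, whose part in them was not tested.

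Tpp1 (ENSRNOG00000019212), whose enzyme cuts tripeptides from protein ends and is lost in a late infantile form of neuronal ceroid lipofuscinosis, had 78.6 and 90.8 CPM in DMSO. It had 9.46 and 11.5 CPM in topotecan, 8.09-fold lower (log2 fold change -3.02, SE 0.13, edgeR adjusted p = 3.3e-10). The replicates of each treatment lay close together and the groups were far apart. Ctsz, the gene of the carboxypeptidase cathepsin Z, went from 6.02 and 5.53 CPM to 3.39 and 2.94 CPM (log2 fold change -0.86, SE 0.20, edgeR adjusted p = 0.0031).

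The other proteases changed less. Ctsb, cathepsin B, was at 1432 and 1445 CPM in DMSO and 1276 and 1273 CPM in topotecan. Its log2 fold change of -0.17 (SE 0.07) missed the threshold (edgeR adjusted p = 0.0547), although the groups did not overlap, and it passed in 4 of 11 alternative analyses. Ctsd, the aspartic protease cathepsin D, and Ctsa, the carboxypeptidase that also shields beta-galactosidase and sialidase from breakdown, were called lower with log2 fold changes of -0.24 (SE 0.08) and -0.25 (SE 0.07). Ctsl, cathepsin L, had a log2 fold change of -0.06 with a 95% interval from -0.21 to 0.10. Within the cysteine cathepsins the fitted change thus ran from -7.12 in Ctsc to -0.06 in Ctsl, and the intervals of these genes do not meet.

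**Figure D2:**
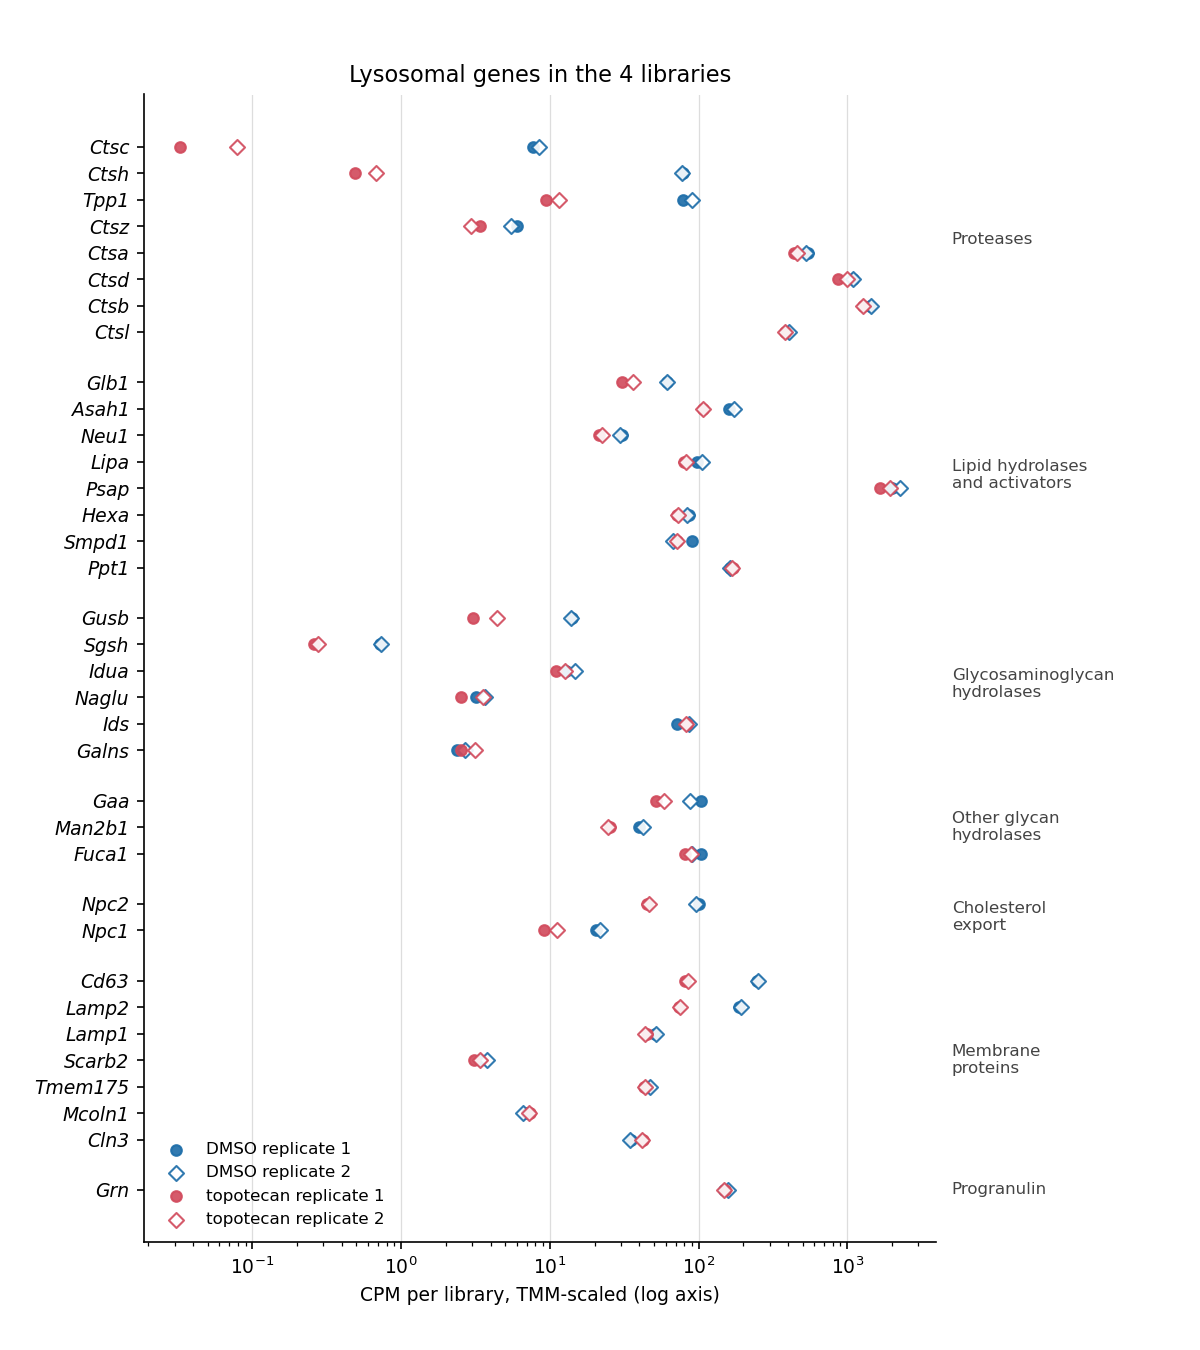
CPM of each lysosomal gene in each of the 4 libraries on a log axis, by role (blue DMSO, red topotecan; circles replicate 1, diamonds replicate 2). For Ctsc, Ctsh and Tpp1 the colours are widely separated, while for Ppt1, Grn and Mcoln1 the 4 marks lie almost on each other; levels of different genes are not corrected for transcript length.

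Enzymes of lipid breakdown fell by modest amounts. Of 8 genes 6 were lower (75%, against 23.5% of all genes tested) and none fell as far as 2-fold, with a median log2 fold change of -0.29. Without topotecan replicate 1 the count was 2. Glb1 (ENSRNOG00000010196), lysosomal beta-galactosidase, which removes galactose from the ganglioside GM1, went from 61.2 and 61.5 CPM to 30.7 and 36.5 CPM. That is 1.83-fold lower (log2 fold change -0.87, SE 0.11, edgeR adjusted p = 2.9e-05). Asah1, acid ceramidase, was at 160 and 174 CPM in DMSO and at 107 CPM in both topotecan libraries (log2 fold change -0.64, SE 0.08, edgeR adjusted p = 4.4e-05). Neu1, the sialidase that forms a complex with the products of Glb1 and Ctsa, fell by 0.45 on the log2 scale (SE 0.12) and Lipa, the acid lipase that frees cholesterol from its esters, fell by 0.33 (SE 0.09). Glb1, Neu1 and Ctsa, the genes of this complex, were each called lower. Their 95% intervals were -1.11 to -0.63 for Glb1, -0.70 to -0.20 for Neu1 and -0.41 to -0.10 for Ctsa, so that of Glb1 lies apart from that of Ctsa.

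Psap (ENSRNOG00000000571), the precursor of the saposins that present sphingolipids to their hydrolases, had 1999 and 2262 CPM in DMSO and 1649 and 1923 CPM in topotecan. The topotecan values lay below both DMSO values, but by less than the gap between replicates (log2 fold change -0.25, SE 0.09, edgeR adjusted p = 0.0313). Without topotecan replicate 1 the value was -0.14 with an adjusted p of 0.354, without DMSO replicate 2 it was -0.16 with 0.116, and DESeq2 gave an adjusted p of 0.0596. Hexa had an adjusted p of 0.0472 and kept its call in 4 of 11 alternatives. Smpd1, acid sphingomyelinase, and Ppt1, which removes palmitate from proteins and is lost in infantile ceroid lipofuscinosis, were not called. The log2 fold change of Smpd1 was -0.14, with DMSO libraries at 89.7 and 67.6 CPM on either side of the topotecan libraries at 71.1 and 71.8 CPM. Ppt1 was at 162 CPM in both DMSO libraries and at 172 and 169 CPM in topotecan, a log2 fold change of 0.07 with an interval from -0.10 to 0.24.

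Among the 6 enzymes that dismantle glycosaminoglycans, the sugar chains of proteoglycans, Gusb and Sgsh fell (33.3%, against 23.5% of all genes tested) and 4 were not called. Leaving out any single library left 1 called, since Sgsh lost its call each time. Gusb (ENSRNOG00000000913), beta-glucuronidase, was read 386 and 324 times in the DMSO libraries and 93 and 111 times in the topotecan libraries. Its CPM were 13.9 ± 0.084 and 3.72 ± 0.967 (mean ± SD, n = 2 each), 3.78-fold lower, and the groups did not overlap (log2 fold change -1.92, SE 0.19, edgeR adjusted p = 2.1e-06). Sgsh, the sulfamidase of heparan sulfate, which overlaps Card14 in the annotation, rested on few counts, 20 and 17 in DMSO and 8 and 7 in topotecan. Its log2 fold change was -1.42 (SE 0.48, edgeR adjusted p = 0.0303), and it kept its call in 4 of the 10 alternatives that tested it. Ids, the iduronate sulfatase lost in Hunter syndrome, was at 71.4 and 86.9 CPM in DMSO and 83.4 and 82.3 CPM in topotecan, so the groups overlapped (log2 fold change 0.07, interval -0.16 to 0.29). Idua, Naglu and Galns, which act on the same or related chains, had log2 fold changes of -0.22, -0.18 and 0.15. Naglu and Galns had at most 89 counts per library. Their intervals reach from -0.69 to 0.32 and from -0.37 to 0.66, so changes within those ranges are not excluded. Idua overlaps Slc26a1 in the RefSeq annotation, and Slc26a1 had 694 counts over the DMSO and 799 over the topotecan libraries.

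The hydrolases of glycogen and of glycoprotein sugars gave 2 falls in 3 genes (66.7%, against 23.5% of all genes tested). Gaa (ENSRNOG00000047656), the acid glucosidase that degrades glycogen and is lost in Pompe disease, went from 104.5 and 88.0 CPM to 52.0 and 58.3 CPM (log2 fold change -0.80, SE 0.11, edgeR adjusted p = 4.5e-05). Man2b1, the alpha-mannosidase, went from 39.9 and 42.5 CPM to 25.2 and 24.4 CPM (log2 fold change -0.73, SE 0.11, edgeR adjusted p = 1.4e-04). In both genes every topotecan library was below every DMSO library by more than the replicates differed. Fuca1, the alpha-fucosidase, was at 103 and 89.9 CPM in DMSO and 81.6 and 89.2 CPM in topotecan. The topotecan libraries were only just the lower ones there, and the change of -0.18 (SE 0.10) was not called.

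Both partners of cholesterol export were lower. Cholesterol freed in the lysosome is taken up by the soluble protein NPC2 and handed to the membrane protein NPC1, and loss of either causes Niemann-Pick disease type C. Npc2 (ENSRNOG00000012062) was at 101 and 96.8 CPM in DMSO and 45.4 and 46.7 CPM in topotecan. Npc1 (ENSRNOG00000012016) was at 20.5 and 21.8 CPM in DMSO and 9.07 and 11.1 CPM in topotecan. The falls were alike in size, 2.15-fold for Npc2 and 2.09-fold for Npc1, with log2 fold changes of -1.10 (SE 0.09) and -1.07 (SE 0.14). The edgeR adjusted p was 4.6e-07 for Npc2 and 5.3e-05 for Npc1, and both stayed called under all 11 alternatives run.

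Of 7 membrane proteins 2 fell (28.6%), a share near the 23.5% of all genes tested, and 5 were not called. Cd63 (ENSRNOG00000007650), a tetraspanin of late endosomes, lysosomes and exosomes, had 247 and 250 CPM in DMSO and 81.3 and 84.4 CPM in topotecan (log2 fold change -1.58, SE 0.08, edgeR adjusted p = 2.2e-09). Lamp2 (ENSRNOG00000000164), a major coat protein of the lysosome with a part in chaperone-mediated autophagy, had 188 and 192 CPM in DMSO and 74.0 and 74.5 CPM in topotecan, 2.55-fold lower (log2 fold change -1.35, SE 0.08, edgeR adjusted p = 1.6e-08). Lamp1, its close relative in the coat, was at 50.6 and 51.8 CPM in DMSO and 44.7 and 43.8 CPM in topotecan. The topotecan libraries were the lower ones, but the change of -0.21 (SE 0.10) did not pass (edgeR adjusted p = 0.110), and its interval from -0.42 to 0.003 does not meet that of Lamp2, from -1.53 to -1.17. The difference between the 2 coat genes was not itself tested. Cd63 overlaps Rdh5, and Glb1 overlaps Tmppe, in the RefSeq annotation. No strand setting is stated, so whether reads of overlapping genes were shared is uncertain for the 11 members that overlap a protein-coding gene. Besides Cd63, Glb1, Sgsh and Idua these are Ctsa, Ctsd, Ctsz, Psap, Hexa, Npc1 and Cln3. The overlaps differ in size, from 12 bases of Ctsz with Nelfcd to 12818 bases of Cd63 with Rdh5. Pltp, which overlaps Ctsa, had 2532 counts over DMSO and 206 over topotecan.

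Scarb2, a membrane protein of the lysosome that also acts as a sorting receptor, Mcoln1, the calcium channel mucolipin 1, and Tmem175, a potassium and proton channel, had log2 fold changes of -0.14, 0.10 and -0.08. None of these 3 was called, and for Scarb2, with 86 to 95 counts per library, the interval ran from -0.59 to 0.31. Cln3, the membrane protein lost in juvenile ceroid lipofuscinosis, was the member with the highest fitted change. It was at 35.3 and 34.4 CPM in DMSO and 42.4 and 41.8 CPM in topotecan, with both topotecan libraries above both DMSO libraries. The log2 fold change of 0.27 (SE 0.10) missed the threshold (edgeR adjusted p = 0.0537), passed with size factors by relative log expression (0.0437) and without DMSO replicate 1 (0.0265), and the value was 0.060 when libraries were scaled to neuron markers. Grn, progranulin, a secreted and lysosomal protein whose loss causes a ceroid lipofuscinosis and a frontotemporal dementia, was at 149 and 158 CPM in DMSO and 150 and 149 CPM in topotecan. The groups overlapped, and the interval of its log2 fold change ran from -0.22 to 0.13.

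Long genes were the submitters' target, and the lysosomal genes are short beside them. In a RefSeq annotation of GRCr8 the 35 genes span from 3.84 to 72.6 kb, with a median of 18.9 kb, and none reaches 100 kb. Of 9837 genes tested that span under 100 kb, 20.2% were lower, against 57.1% of the members. The members that fell had a median span of 19.1 kb and those not called one of 17.3 kb. Tpp1 spans 6.12 kb and Ctsh 18.9 kb. Glb1, the longest at 72.6 kb, fell by 0.87 and Scarb2, at 51.5 kb, was not called. Lamp2, at 49.0 kb, and Npc1, at 45.6 kb, fell by 1.35 and 1.07. Across the 35 genes the rank correlation (Spearman's rho) between span and fitted change was -0.12, and across all tested genes under 100 kb it was -0.20. Both describe genes measured in the same 4 libraries and are no test across samples. The labels name no genome build, so spans are used only as a property of each gene.

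**Figure D3:**
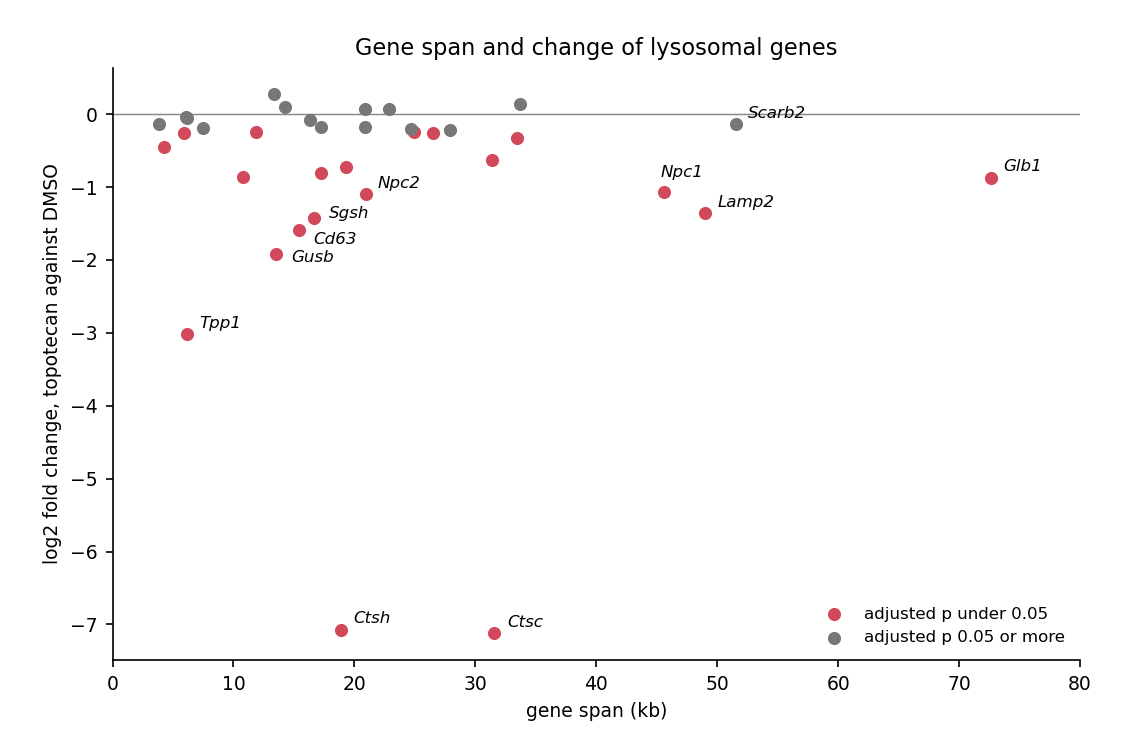
Gene span in kb against log2 fold change in topotecan for the 35 lysosomal genes (red, adjusted p under 0.05; grey, not called). The deepest falls, Ctsh, Ctsc and Tpp1, lie at spans of 18.9, 31.6 and 6.12 kb, to the left of Glb1 at 72.6 kb.

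An exact match to the E-box of the CLEAR element was found in some of the members' promoters and not in others. Promoter windows of 300 bases, 250 before and 50 after the start site, came from RefSeq (GRCr8) and were matched for 31 of the 36 genes, Manba included, but not for Asah1, Ctsb, Hexa, Ppt1 and Psap. They were searched for the E-box CACGTG and for the longer core of the CLEAR element, TCACGTGA, which contains it. Both read the same on either strand, and only exact matches were counted. The E-box was found in 10 of the 31 windows (32.3%), against 6.42% of the 33469 windows in the table, and the longer core in 4 (12.9%), against 0.777%. The windows with the longer core are those of Lamp1 (chr16:83075014-83075313, minus strand), Mcoln1 (chr12:6358008-6358307, plus strand), Cln3 (chr1:190597880-190598179, minus strand) and Ctsd (chr1:206968772-206969071, minus strand). They are shown first because they carry the element, followed by Ctsh (chr8:99488506-99488805, plus strand) and Tpp1 (chr1:169515890-169516189, minus strand). Ctsh and Tpp1 fell by more than 8-fold and hold no exact match to either motif in this window. The Tpp1 window does hold tcatgtga and tcacatga, each a letter away from TCACGTGA. Such near matches were not searched for in any window. Capitals mark the matches, 6 letters for the E-box alone and 8 for the longer core.
Lamp1: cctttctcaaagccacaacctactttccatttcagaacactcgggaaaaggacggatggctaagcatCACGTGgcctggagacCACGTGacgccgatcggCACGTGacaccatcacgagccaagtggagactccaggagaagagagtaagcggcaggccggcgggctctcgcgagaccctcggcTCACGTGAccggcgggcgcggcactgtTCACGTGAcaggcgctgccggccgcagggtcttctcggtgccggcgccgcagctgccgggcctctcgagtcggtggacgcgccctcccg
Mcoln1: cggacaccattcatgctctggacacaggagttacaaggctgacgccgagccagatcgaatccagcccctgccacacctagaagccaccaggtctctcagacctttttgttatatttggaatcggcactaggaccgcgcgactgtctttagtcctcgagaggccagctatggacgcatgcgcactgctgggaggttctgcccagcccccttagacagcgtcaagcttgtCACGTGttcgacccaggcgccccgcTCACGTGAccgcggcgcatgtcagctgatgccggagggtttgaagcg
Cln3: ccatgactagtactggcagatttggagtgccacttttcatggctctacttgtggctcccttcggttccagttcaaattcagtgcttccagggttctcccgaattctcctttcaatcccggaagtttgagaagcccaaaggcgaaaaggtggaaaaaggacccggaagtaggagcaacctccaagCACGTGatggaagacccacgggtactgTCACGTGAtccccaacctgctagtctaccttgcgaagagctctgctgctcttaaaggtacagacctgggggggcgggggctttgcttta
Ctsd: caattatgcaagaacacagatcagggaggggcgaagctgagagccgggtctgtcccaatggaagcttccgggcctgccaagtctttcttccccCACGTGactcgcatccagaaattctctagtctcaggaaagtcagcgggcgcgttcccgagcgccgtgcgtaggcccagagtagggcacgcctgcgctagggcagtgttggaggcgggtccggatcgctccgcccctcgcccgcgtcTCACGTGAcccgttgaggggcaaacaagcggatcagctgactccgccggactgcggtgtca
Ctsh: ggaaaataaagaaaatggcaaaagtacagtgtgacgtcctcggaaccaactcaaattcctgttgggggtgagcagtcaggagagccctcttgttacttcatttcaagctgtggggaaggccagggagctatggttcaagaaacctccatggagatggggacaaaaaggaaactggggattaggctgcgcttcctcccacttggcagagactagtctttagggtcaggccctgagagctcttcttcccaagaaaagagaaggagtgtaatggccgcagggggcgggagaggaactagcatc
Tpp1: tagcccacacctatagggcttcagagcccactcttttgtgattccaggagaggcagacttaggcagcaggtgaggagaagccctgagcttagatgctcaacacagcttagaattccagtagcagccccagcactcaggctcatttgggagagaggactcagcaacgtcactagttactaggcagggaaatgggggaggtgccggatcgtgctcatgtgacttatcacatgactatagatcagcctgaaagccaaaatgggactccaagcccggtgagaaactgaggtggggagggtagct

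The Lamp1 window holds 5 E-boxes, 2 of them within the longer core, and is the only one of the 33469 windows with 5 or more. Positions are those of the first E-box letter, with -1 the last base before the start site. The E-boxes within cores lay at -65 and -38 in Lamp1, at -38 in Cln3, at -10 in Ctsd and at 5 in Mcoln1. The 4 genes with the longer core had log2 fold changes of -0.21, 0.10, 0.27 and -0.24, and of these Ctsd was called. None of the 9 members that fell by 2-fold or more held an exact match to the longer core, though Cd63 and Sgsh held an E-box. By call, the E-box was found in 5 of 17 windows of genes that fell and 5 of 13 of genes not called, and the longer core in 1 of 17 and 3 of 13. A match is a stretch of letters and not a measured binding site, and with 4 windows no test was made.

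**Figure D4:**
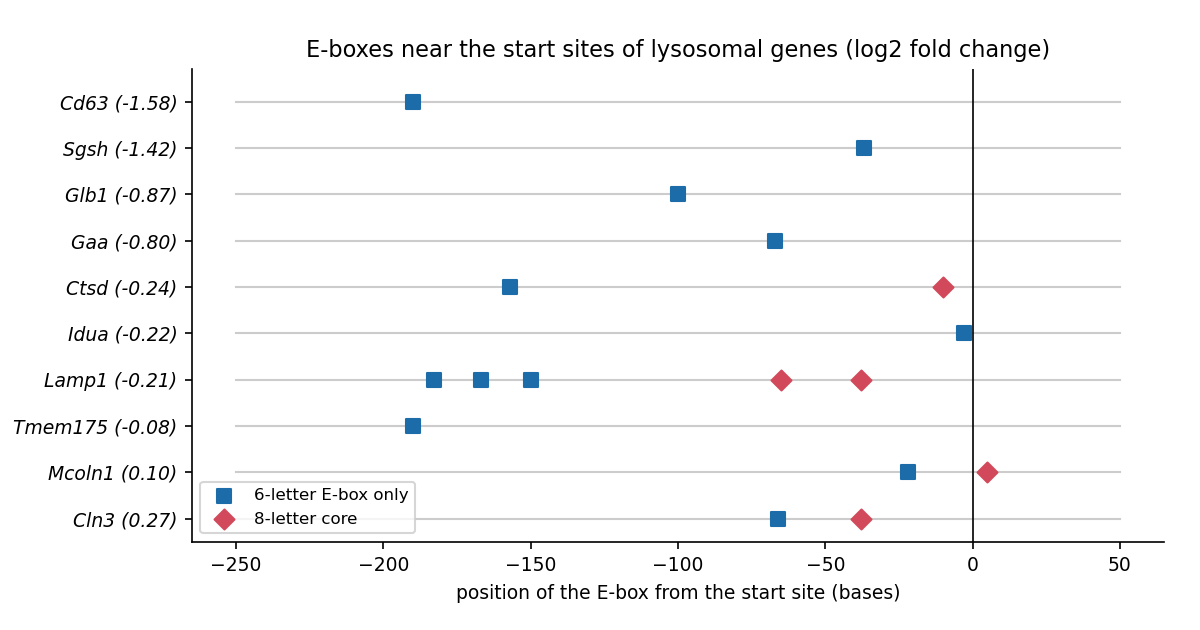
Position of each E-box from the start site in the 10 promoter windows that hold one, with each gene's log2 fold change beside its name (squares, the 6-letter E-box only; diamonds, E-box within the 8-letter core). Genes are ordered from the largest fall, Cd63, down to Cln3. The diamonds are at Ctsd, Lamp1, Mcoln1 and Cln3, while Idua and Tmem175, in rows between these, have squares only.

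Other parts of the lysosomal system give the setting for these values. Over 124 further genes tested in 6 lists, 33 were lower (26.6%, against 23.5% of all genes tested) and 26 higher (21.0%, against 16.2%), with a median of -0.05. These pooled shares are near those of all genes, but the lists within the pool differ. The share lower was 52% for other hydrolases and 45% for other membrane proteins, against 57.1% of the members. For V-ATPase and sorting genes it was 6.25% and 4.76%. Scaled to neuron markers 56 were lower and 3 higher (median -0.26), against 33.4% and 4.73% of all genes tested under that scaling. Of 25 other hydrolases 13 fell (52%, against 23.5% of all genes tested) and 1 rose (4%, against 16.2%), with a median of -0.33. Fewer were called lower without topotecan replicate 1, where the median was -0.32. Dnase2, the lysosomal DNase, dropped from 10.5 ± 0.758 to 1.82 ± 0.383 CPM (mean ± SD, n = 2 each), a log2 fold change of -2.51 (SE 0.20), and Rnaset2, a ribonuclease, from 1.56 to 0.286 CPM (-2.44, SE 0.43). Hyal2, a hyaluronidase, was the hydrolase that rose, by 0.40 (SE 0.15), though none was called higher when scaled to neuron markers. Dpp7, a dipeptidyl peptidase, had a log2 fold change of -0.54 (SE 0.08). Ctss and Cd68, the cathepsin S and CD68 genes typical of macrophages and microglia, were named after values were seen and were not tested in the main analysis. Ctss had 1 count in DMSO and 5 in topotecan, and Cd68 had 6 and 5.

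Of 20 other lysosomal membrane proteins 9 fell (45%, against 23.5% of all genes tested) and 1 rose (5%, against 16.2%), with a median of -0.32. Fewer were called lower without topotecan replicate 2 (median -0.36), and more were called higher without DMSO replicate 1 (median -0.31). Tpcn2 (ENSRNOG00000013387), a two-pore cation channel of the lysosome, had 198 and 169 counts under DMSO, whereas neither topotecan library held any (0 counts). It was at least 134-fold lower, taking as floor 3 counts summed over both topotecan libraries, which covers counting error only. Laptm4b, a lysosomal membrane protein gene, dropped from 23.6 to 3.56 CPM (log2 fold change -2.72, SE 0.20). Laptm4a, its relative, was at 393 and 409 CPM as group means and was not called (0.06, SE 0.08). Atp13a2, a polyamine transporter of the lysosome, rose by 0.36 (SE 0.12), though none of the list was called higher when scaled to neuron markers.

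The direction of the proton pump genes depended on the scaling. Of 16 V-ATPase genes, which encode the pump that acidifies the lysosome and also synaptic vesicles, 7 rose and 1 fell, with a median of 0.15. Those are 43.8% and 6.25%, against 16.2% and 23.5% of all genes tested. Scaled to neuron markers 1 rose, 3 fell and the median was -0.07, while 4.73% of all genes tested rose and 33.4% fell. Without topotecan replicate 1 the V-ATPase count higher was 4, and without topotecan replicate 2 it was 3. Scaling to neuron markers moved the median of all genes from -0.0096 to -0.22, and relative to it the V-ATPase median was 0.16 and 0.15. Atp6v1f rose by 0.47 (SE 0.08), Atp6v0b by 0.35 (SE 0.08) and Atp6v0c, which forms the membrane ring, by 0.24 (SE 0.07), while Atp6v0e1 fell by 0.64 (SE 0.12). The members' median was -0.25 and -0.47 under these scalings, and relative to that of all genes -0.245 and -0.247. In topotecan the summed V-ATPase level was 14080 and 13970 CPM, against 12590 and 12340 CPM in DMSO.

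Sorting, signalling and autophagy genes went in both directions. So did genes at large, with 23.5% of all genes tested lower and 16.2% higher. Scaled to neuron markers these shares of all genes were 33.4% and 4.73%. Of 21 genes for enzyme sorting and endosomal traffic 5 rose (23.8%) and 1 fell (4.76%), with a median of 0.02. Scaled to neuron markers 0 rose and 8 fell (median -0.19). The count higher was 3 without topotecan replicate 1 or DMSO replicate 2 and 2 without topotecan replicate 2, and the count lower was 3 without DMSO replicate 1. Vps26b and Vps29, of the retromer that returns sorting receptors, rose by 0.44 (SE 0.10) and 0.35 (SE 0.08), Vps41 fell by 0.30 (SE 0.07), and Vps35 had a change of -0.14 and was not called. Igf2r, the large mannose 6-phosphate receptor, and Gnptab, which makes the mannose 6-phosphate tag, were not called (-0.18 and -0.40). In the list of TFEB relatives and mTORC1, the kinase complex that holds TFEB inactive at the lysosome, 4 of 19 genes fell and 4 rose. That is 21.05% in each direction, near the shares of all genes tested. Scaled to neuron markers 7 of this list fell and 2 rose. Mitf, a TFEB relative, dropped from 5.13 to 0.631 CPM (log2 fold change -3.03, SE 0.29), Rptor fell by 0.67 (SE 0.13), Rragd rose by 0.95 (SE 0.19) and Rheb by 0.51 (SE 0.09), and Rraga rose by 0.28 (SE 0.08). Tfeb itself had 23 counts in DMSO and 5 in topotecan and was not tested in the main analysis.

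Of 23 macroautophagy genes 8 rose (34.8%, against 16.2% of all genes tested) and 5 fell (21.7%, against 23.5%), with a median of 0.04. Scaled to neuron markers 0 rose and 10 fell (median -0.17), while 4.73% of all genes tested rose and 33.4% fell. Without topotecan replicate 1 the counts were 3 higher and 1 lower, and without topotecan replicate 2 they were 5 and 3. Gabarap and Map1lc3b, which coat the growing autophagosome, rose by 0.38 (SE 0.09) and 0.30 (SE 0.07), and Atg101, of the starting kinase complex, by 0.42 (SE 0.08). Wipi1, a phosphoinositide binding protein of the same pathway, dropped from 14.8 to 1.48 CPM (log2 fold change -3.32, SE 0.19), and Atg7 fell by 0.37 (SE 0.11). Igf2r, Gnptab and Tfeb were named for their known roles, outside the rule for named genes.

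**Figure D5:**
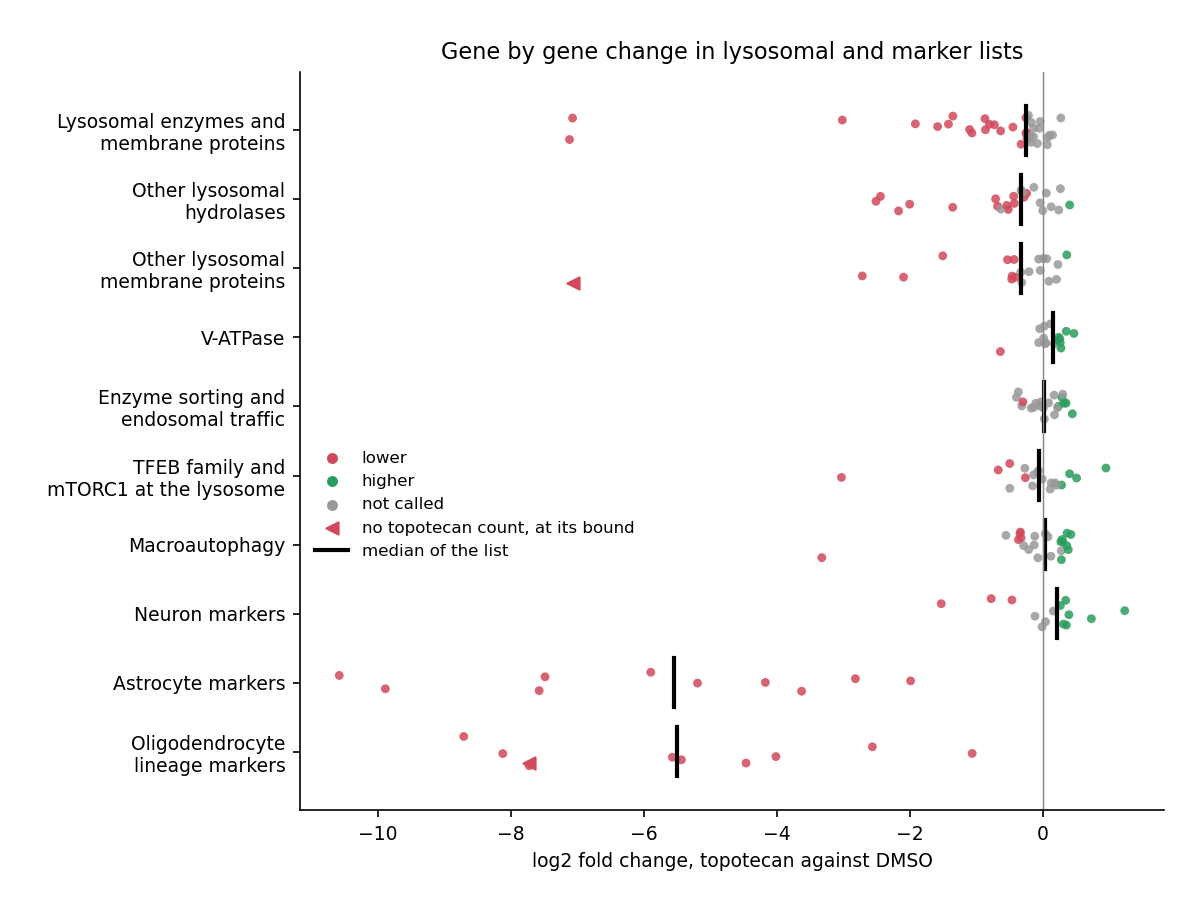
Log2 fold change of each tested gene in the lysosomal lists and in 3 cell marker lists (red lower, green higher, grey not called; black bar, median of the list; vertical scatter has no meaning). Triangles are Tpcn2 and Sox10, which had no topotecan count and are drawn at their bound; the hydrolase and membrane protein rows reach left, the V-ATPase row centres on 0.15, and the astrocyte and oligodendrocyte rows on -5.54 and -5.50.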

How the data were processed

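RNA was sequenced from 4 libraries, 2 of DMSO-treated and 2 of topotecan-treated cells, grouped by their titles. Whole-number counts per gene were deposited by the authors as 1 table. STAR and edgeR are named in the submitters' processing notes, without versions; build, annotation, counting tool and strand setting are not given. The labels name a small RNA library kit, while protein-coding genes held 96.3 to 97.0% of the counts. The table's 22641 rows hold 21648 identifiers, because 792 of them recur with equal counts; each was used once. The main test was edgeR 4.0.16 (R 4.3.3; quasi-likelihood, treatment only, TMM, filterByExpr with minimum count 10 and total 15), adjusted by Benjamini-Hochberg over 12162 genes at 0.05, with 2 residual degrees of freedom. Standard errors were derived from the fold change and its F statistic. CPM are per 1e6 TMM-scaled counts. The scripts were tested on simulated data. Replicates differed by more than sampling noise (chi-square per degree of freedom 13.0 in DMSO and 9.34 in topotecan). The members, lists and rules were chosen with earlier results of these data known. Values are given for members called with a log2 fold change of at least 0.58 in size, for the member of each role with the highest mean CPM, and for up to 2 called genes in each direction and the most abundant gene of each other list. DESeq2 1.42.0, limma-voom (limma 3.58.1), other scalings, other filters, a replicate block and leaving out each library were alternatives. Promoters and spans are RefSeq's.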

Additional observations from a re-analysis of the deposited data

How the results depend on the processing

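The falls of Ctsc, Ctsh, Tpp1, Gusb, Cd63, Lamp2, Npc2, Npc1, Glb1, Ctsz, Gaa, Man2b1 and Asah1 kept direction and call under all 11 alternatives. No member that was called changed direction. The count of members lower was 16 with DESeq2 and 26 when scaled to neuron markers; leaving out single libraries it ran from 13 to 20, and for members higher from 0 to 1. With size factors by relative log expression 1 member was higher. Scaled to neuron markers, 575 genes were higher (1970 in the main analysis; 87.6% of calls lower against 59.2%), the members' median was -0.47, and among other lysosomal genes 56 were lower, 3 higher and the median was -0.26. The median of the other lysosomal genes was -0.038 with DESeq2 and with relative log expression, and -0.061 with a stricter count filter. Leaving out single libraries, genes higher ran from 1208 to 2470, the members' median from -0.35 to -0.22, other lysosomal genes lower from 20 to 34 and higher from 13 to 32, and their median from -0.067 to 0.0068. The lowest of these counts came without a topotecan library; the cause was not tested. With the replicate number as a replicate block, 20 members were lower and 4568 genes were called, against 4824. The labels do not say that the numbers pair the samples, and replicate differences correlated at r = -0.06 between treatments across genes. Genes with few counts, Sgsh, Naglu, Galns, Scarb2 and Ctsc among them, are limited by depth.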
